A study of Mus musculus with 4 samples.

Results

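The genes described here are 35 genes of endoplasmic reticulum (ER) protein folding and of the response to ER and amino acid stress, in bulk RNA-seq of cultured mouse prostate fibroblasts. They were chosen by name from the pathway, with earlier results of these data known. Counts of members set beside shares of all genes below are therefore descriptions, not tests. All 35 were found by symbol among the 56748 gene IDs of the count table. They fall into 2 arms. The ATF6 and XBP1 arm holds 23 genes, of which 11 are chaperones and cochaperones, 4 are disulfide isomerases, 5 act in ER-associated degradation (ERAD) and 3 are sensors or transcription factors. The ATF4 arm holds 12 genes, of which 5 are regulators, 5 are enzymes of amino acid and one-carbon metabolism and 2 are amino acid transporters. All 35 had a mean of at least 1 scaled CPM over the 4 libraries, as did 14365 genes in all. The lowest of them was Derl3 with a mean of 1.25 CPM, and only it and Chac1 lay below 10 CPM.

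There were 4 libraries, 1 for each of the conditions BuOE with radiation, PBS with radiation, BuOE and PBS (phosphate-buffered saline). All came from male C57BL/6 mice of 8 to 10 weeks. The irradiated mice received 37.5 Gy to the shielded pelvis in fractions of 7.5 Gy over 5 days at 1.2 Gy per minute. Cells freed from the minced prostates by collagenase were grown in DMEM with 10% fetal bovine serum and 1% non-essential amino acids before RNA was isolated. BuOE is the label of the compound in the study's title, BMX-001, a manganese porphyrin that mimics superoxide dismutase, which the title says was given 3 weeks after radiation. The labels of these libraries give neither its dose nor its timing, nor whether animals or cultures received it, nor how many animals stand behind a library. Since each condition is 1 library, the ratios between libraries have neither a replicate check nor a p-value, and "higher" and "lower" compare libraries.

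The depth was 25.0 M counted reads for irradiated BuOE, 35.9 M for irradiated PBS, 28.9 M for BuOE and 29.7 M for PBS. The libraries differed in more than these genes, and in bulk RNA fewer cells of a type and less RNA per cell cannot be told apart. All 10 fibroblast markers were expressed, and their summed level was 6799 CPM in the irradiated BuOE library, 11355 in the irradiated PBS library, 7873 in the BuOE library and 8768 in the PBS library. The markers in this sum differed. Col1a1 (795, 2249, 1443 and 1652 CPM in the same order), Col1a2, Col3a1, Pdgfrb, Vim and Fap were lowest in the irradiated BuOE library. Dcn (1324, 994, 882 and 511 CPM) and Pdgfra were highest there, and Lum and Thy1 were neither. All 8 epithelial markers were expressed as well, with sums of 4379, 3178, 4627 and 3948 CPM in the same order. Some smaller marker sums spread further. The 5 neuronal markers summed to 17.3 CPM in the irradiated BuOE library, 90.8 in the irradiated PBS library, 294 in the BuOE library and 7.59 in the PBS library, and the 4 Schwann and glial markers to 54.6, 60.5, 96.8 and 15.7 CPM in that order. The 5 adipocyte markers summed to 73.7, 68.7, 43.0 and 304 CPM, with Adipoq at 0 in the BuOE library, and the 6 prostate secretory markers to 208, 557, 548 and 785 CPM. The BuOE library was thus highest in neuronal and glial markers, and the PBS library highest in adipocyte and secretory markers. The 13 mitochondrially encoded mRNAs took 2.64% of the counts in the irradiated BuOE library, 0.864% in the irradiated PBS library, 0.725% in the BuOE library and 0.403% in the PBS library. The part of cell mixture and of the mitochondrial share in the results below was not tested.

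Proteins that enter the secretory pathway fold in the ER, helped by the chaperone BiP (Hspa5), by the lectin chaperones calnexin and calreticulin and by disulfide isomerases. When unfolded proteins accumulate, 3 sensors start the unfolded protein response: ATF6 is cleaved into a transcription factor, IRE1 (Ern1) splices the mRNA of XBP1, and PERK phosphorylates the translation factor eIF2alpha, which favours translation of ATF4. ATF6 and XBP1 induce chaperones and ERAD genes, whereas ATF4, which also responds to lack of amino acids, induces amino acid synthesis, amino acid transport and the factor CHOP (Ddit3). Fibroblasts that secrete collagen rely on this folding system. Counts per gene do not separate spliced from unspliced Xbp1 mRNA and do not show translation of Atf4.

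The promoters of the members were searched for elements known from the arms, and windows are shown for the 3 most expressed genes with an ER element and for the 3 genes of the ATF4 arm with its element. RefSeq windows of 300 bases, from 250 before to 50 after the start site (GRCm38.p6), were given for 31 of the 35 genes, 20 of the ATF6 and XBP1 arm and 11 of the ATF4 arm. The ER stress response element, spelled CCAAT, any 9 bases, CCACG and searched like the others on both strands, was found in 9 of the 20 genes of the first arm, in 0 of the 11 of the second and in 0.119% of all 32851 windows. Its second form, ATTGG, any base, CCACG, was found in Dnajb11 and Herpud1 and in 0.0365% of all windows. The unfolded protein response element TGACGTGG was in none of the 31 genes' windows and in 0.676% of all. The C/EBP-ATF element, spelled TGATGNAA, was found in Asns, Trib3 and Chac1 of the ATF4 arm, in Herpud1 of the other arm and in 3.97% of all windows. These are matches of letters, not tested sites. In the windows printed here, 5′ to 3′ on the gene's strand, capitals mark the fixed bases of the arm's element. Hspa5 (chr2:34771840-34772139, plus strand), Hsp90b1 (chr10:86705395-86705694, minus strand) and Calr (chr8:84846882-84847181, minus strand) carry the ER stress response element, Hsp90b1 with 2 copies in opposite orientations; Asns (chr6:7693160-7693459, minus strand), Trib3 (chr2:152344011-152344310, minus strand) and Chac1 (chr2:119350992-119351291, plus strand) carry the C/EBP-ATF element.
Hspa5: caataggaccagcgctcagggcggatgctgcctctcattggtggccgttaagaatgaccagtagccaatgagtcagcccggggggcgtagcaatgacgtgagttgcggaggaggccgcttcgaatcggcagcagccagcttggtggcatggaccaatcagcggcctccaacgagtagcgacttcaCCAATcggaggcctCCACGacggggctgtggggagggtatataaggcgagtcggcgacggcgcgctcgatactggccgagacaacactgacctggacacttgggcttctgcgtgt
Hsp90b1: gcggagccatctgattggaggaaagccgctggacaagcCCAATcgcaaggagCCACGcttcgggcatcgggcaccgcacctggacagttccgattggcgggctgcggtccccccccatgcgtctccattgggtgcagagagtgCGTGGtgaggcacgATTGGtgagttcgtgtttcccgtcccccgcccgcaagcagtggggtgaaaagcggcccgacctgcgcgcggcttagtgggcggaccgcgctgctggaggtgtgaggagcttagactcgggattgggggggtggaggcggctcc
Calr: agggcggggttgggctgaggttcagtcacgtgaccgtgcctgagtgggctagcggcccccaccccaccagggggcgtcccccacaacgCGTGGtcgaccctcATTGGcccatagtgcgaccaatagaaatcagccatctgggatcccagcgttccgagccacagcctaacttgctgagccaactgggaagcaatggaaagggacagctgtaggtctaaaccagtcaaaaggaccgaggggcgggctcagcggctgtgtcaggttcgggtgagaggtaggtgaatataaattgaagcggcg
Asns: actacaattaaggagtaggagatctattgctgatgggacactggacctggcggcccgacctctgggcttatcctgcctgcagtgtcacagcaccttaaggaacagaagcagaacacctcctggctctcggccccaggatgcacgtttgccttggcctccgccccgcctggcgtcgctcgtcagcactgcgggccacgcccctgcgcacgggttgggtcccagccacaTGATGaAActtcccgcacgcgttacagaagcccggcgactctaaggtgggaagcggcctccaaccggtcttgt
Trib3: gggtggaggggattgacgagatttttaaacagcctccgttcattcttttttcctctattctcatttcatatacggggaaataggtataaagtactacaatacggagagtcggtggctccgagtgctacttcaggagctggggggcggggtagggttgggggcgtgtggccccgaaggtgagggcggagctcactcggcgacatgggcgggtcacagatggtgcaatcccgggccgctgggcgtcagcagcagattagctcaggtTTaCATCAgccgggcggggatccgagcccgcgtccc
Chac1: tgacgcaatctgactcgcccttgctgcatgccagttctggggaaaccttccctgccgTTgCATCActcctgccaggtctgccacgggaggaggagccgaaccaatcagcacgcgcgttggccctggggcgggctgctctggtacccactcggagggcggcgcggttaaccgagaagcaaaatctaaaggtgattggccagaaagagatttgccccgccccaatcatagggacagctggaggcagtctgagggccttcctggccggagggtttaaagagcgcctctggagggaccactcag

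Measured per length of exon (TPM), the folding genes were among the most abundant members. Calr, which encodes calreticulin, averaged 1993 TPM over the 4 libraries, the disulfide isomerase gene P4hb 1803, Hspa5 1461, Hsp90b1, which encodes the ER form of HSP90, 1191 and the isomerase gene Pdia3 974. The order at the top was not the same in each library: Hspa5 led with 2159 TPM in the irradiated BuOE library, whereas Calr led in the irradiated PBS library (2101), the BuOE library (1680.2) and the PBS library (2526). The most abundant member of the ATF4 arm was Atf4 itself with a mean of 458 TPM, followed by Slc3a2 with 294. The least abundant was Derl3, an ERAD gene typical of secretory cells, with 2.38 TPM.

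**Figure D1:**
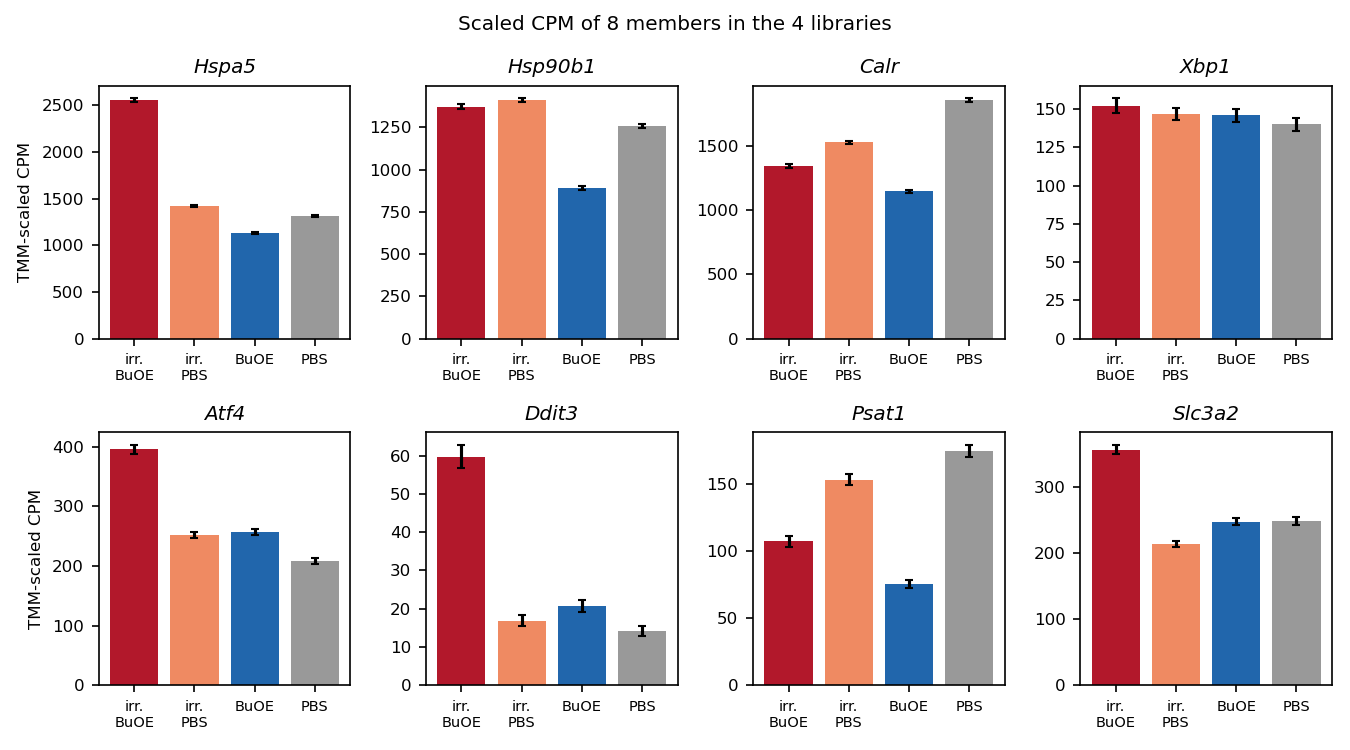
TMM-scaled CPM (y axis, from 0) of 8 members in the irradiated BuOE, irradiated PBS, BuOE and PBS libraries (x axis; irr. stands for irradiated), 1 library each, with exact Poisson 95% counting intervals as bars. Hspa5, Atf4, Ddit3 and Slc3a2 stand clearly highest in the irradiated BuOE library, Psat1 and Hsp90b1 lowest in the BuOE library, and Xbp1 lies between 140 and 152 CPM in all 4.

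The first comparison is radiation within the BuOE arm, where most of these genes were higher in the irradiated library. Ratios are log2 ratios of TMM-scaled CPM, each followed by its exact binomial 95% interval, which covers counting error only. Of the 35 genes, 32 had a ratio above 0, against 46.2% of all 14365 genes, and their median ratio was 0.38, against -0.03 for all genes. With library size alone as scaling 28 of 35 lay above 0, against 35.1% of all genes, and with upper-quartile factors 34 of 35, against 58.9%. A change of scaling shifts the ratios of all genes by nearly the same amount. The count above the median of all genes, 32 of 35, could therefore hardly differ between scalings and is no check on them. At least 2-fold higher were 3 genes (against 2.27% of all genes), namely Ddit3, Derl3 and Hspa5, and 0 were at least 2-fold lower, against 4.94% of all genes. At least 1.5-fold higher were 6, against 8.3% of all genes. Derl3 reached the filter on low values only through the irradiated BuOE library, so its place in these counts is not read as a result. Among genes of at least 10 CPM, which leaves it out, 2 members were at least 2-fold higher, against 1.2% of those genes.

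Among the chaperones, 10 of 11 had ratios above 0 in this arm, with a median of 0.38. Hspa5, which encodes the central ER chaperone BiP, stood at 2557 CPM in the irradiated BuOE library, 1422 in the irradiated PBS library, 1129.7 in the BuOE library and 1313 in the PBS library. The irradiated BuOE library was far above the other 3, and its ratio to the BuOE library was 1.18 (1.16 to 1.20). Hsp90b1, which carries the same promoter element, stood at 1372 CPM in the irradiated BuOE library, 1412 in the irradiated PBS library, 892 in the BuOE library and 1259 in the PBS library, so that the BuOE library was low and the other 3 lay close together; its radiation ratio in the BuOE arm was 0.62, 0.60 to 0.64. Calr stood at 1343 CPM in the irradiated BuOE library, 1524 in the irradiated PBS library, 1143 in the BuOE library and 1854 in the PBS library, highest in the PBS library, with a ratio of 0.23, 0.21 to 0.25. The ratio of Canx, which encodes calnexin, was 0.38, 0.35 to 0.40, and that of the small ER protein gene Sdf2l1 0.64, 0.48 to 0.80, at 29.3 CPM in the irradiated BuOE library against 18.8 in the BuOE library. Dnajb9, an ER J protein that binds IRE1 and unfolded proteins, had a ratio of 0.53, 0.42 to 0.65, Manf, which encodes a secreted stress factor, 0.42, 0.35 to 0.48, and the large HSP70-like chaperone gene Hyou1 0.26, 0.22 to 0.30. The exception was Dnajb11, a BiP cochaperone, at 95.5 CPM in the irradiated BuOE library against 108 in the BuOE library (-0.17, -0.25 to -0.10). Dnajc3, a further BiP cochaperone, and Creld2, a disulfide isomerase-like gene, had the smallest ratios above 0 (0.11 and 0.17).

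All 4 disulfide isomerases were higher in the irradiated BuOE library, in a narrow range from 0.28 for Pdia3 to 0.50 for P4hb. P4hb, which also serves as a subunit of prolyl hydroxylase for collagen, stood at 1576 CPM in the irradiated BuOE library against 1114 in the BuOE library. All 5 ERAD genes also had ratios above 0. Herpud1, an ER membrane protein that assembles the degradation complex and the one gene with elements of both arms, stood at 68.3 CPM in the irradiated BuOE library, 48.8 in the irradiated PBS library, 51.0 in the BuOE library and 42.6 in the PBS library, with a ratio of 0.42, 0.32 to 0.52 in this arm. Edem1, a mannosidase-like factor that marks proteins for degradation, had a ratio of 0.40, 0.34 to 0.46. The core ligase genes Sel1l (0.01) and Syvn1 (0.07) had intervals that include 0, and both changed sign between scalings. Derl3 had 68, 30, 31 and 10 reads in the irradiated BuOE, irradiated PBS, BuOE and PBS libraries, and its ratio of 1.4, 0.82 to 2.11 has the widest interval of the 35. It stood at 2.80 CPM in the irradiated BuOE library, 0.842 in the irradiated PBS library, 1.02 in the BuOE library and 0.341 in the PBS library and passed the filter of 1 CPM on the mean only through the irradiated BuOE library. Plasma cells are known for Derl3, and of 6 plasma cell markers 3 had a mean of at least 1 CPM. The 6 summed to 374 CPM in the irradiated BuOE library, 432 in the irradiated PBS library, 653 in the BuOE library and 491 in the PBS library, of which Sdc1, also an epithelial gene, made up 363, 416, 649 and 449 CPM. In the same order, Ighm stood at 7.41, 10.5, 3.63 and 30.3 CPM, Igkc at 2.14, 3.93, 0.330 and 9.67 and Jchain at 0.576, 0.786, 0.132 and 1.36. Ighm, Igkc and Jchain were thus highest in the PBS library, where Derl3 was lowest. Pou2af1 lay at or below 0.511 CPM and Mzb1 at or below 0.132. The part of plasma cells in the Derl3 values was not tested.

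All 3 sensors and factors had ratios above 0 in the BuOE arm. Atf6 stood at 157 CPM in the irradiated BuOE library, 128 in the irradiated PBS library, 122 in the BuOE library and 102 in the PBS library (0.37, 0.30 to 0.43 for radiation in the BuOE arm) and Ern1, which encodes IRE1, at 125 CPM in the irradiated BuOE library, 92.3 in the irradiated PBS library, 88.5 in the BuOE library and 84.1 in the PBS library (0.49, 0.42 to 0.57). Both were highest in the irradiated BuOE library. Xbp1 was the steadiest of the transcription factors, at 152 CPM in the irradiated BuOE library, 147 in the irradiated PBS library, 146 in the BuOE library and 140.1 in the PBS library. Its ratio of 0.06, -0.00 to 0.12 had an interval that includes 0 and changed sign between scalings.

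In the ATF4 arm, 10 of 12 genes had ratios above 0 with radiation in the BuOE arm, and the median was 0.37. Ddit3, which encodes CHOP, a factor linked to cell death under lasting ER stress, stood at 59.8 CPM in the irradiated BuOE library, 16.8 in the irradiated PBS library, 20.6 in the BuOE library and 14.1 in the PBS library. The irradiated BuOE library stood apart from the other 3, and the ratio of 1.53, 1.4 to 1.67 was the highest of all 35. Atf4 followed in the same library, at 396 CPM in the irradiated BuOE library, 252 in the irradiated PBS library, 257 in the BuOE library and 208 in the PBS library (0.62, 0.58 to 0.67). The other regulators did not share that step: Trib3, a pseudokinase gene induced by ATF4 and CHOP, had a ratio of 0.10, -0.04 to 0.25, Chac1, which encodes a glutathione-degrading enzyme, 0.17, -0.10 to 0.45, and the factor gene Atf5 -0.12, -0.20 to -0.03. The interval includes 0 for Trib3 and Chac1, and the ratios of Trib3 and Atf5 changed sign between scalings. Of the enzymes, Mthfd2 of mitochondrial one-carbon metabolism (0.54, 0.44 to 0.64), the serine synthesis gene Psat1 (0.50, 0.42 to 0.59), asparagine synthetase Asns (0.49, 0.40 to 0.58) and Phgdh, the first enzyme of serine synthesis (0.25, 0.14 to 0.36), were higher, and the serine hydroxymethyltransferase gene Shmt2 was not (-0.06, -0.15 to 0.02). Slc3a2, the heavy chain of several amino acid exchangers, stood at 358 CPM in the irradiated BuOE library, 214 in the irradiated PBS library, 248 in the BuOE library and 249 in the PBS library (0.53, 0.48 to 0.57), and its partner Slc7a5, the large neutral amino acid transporter, had a ratio of 0.25, 0.15 to 0.34.

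**Figure D2:**
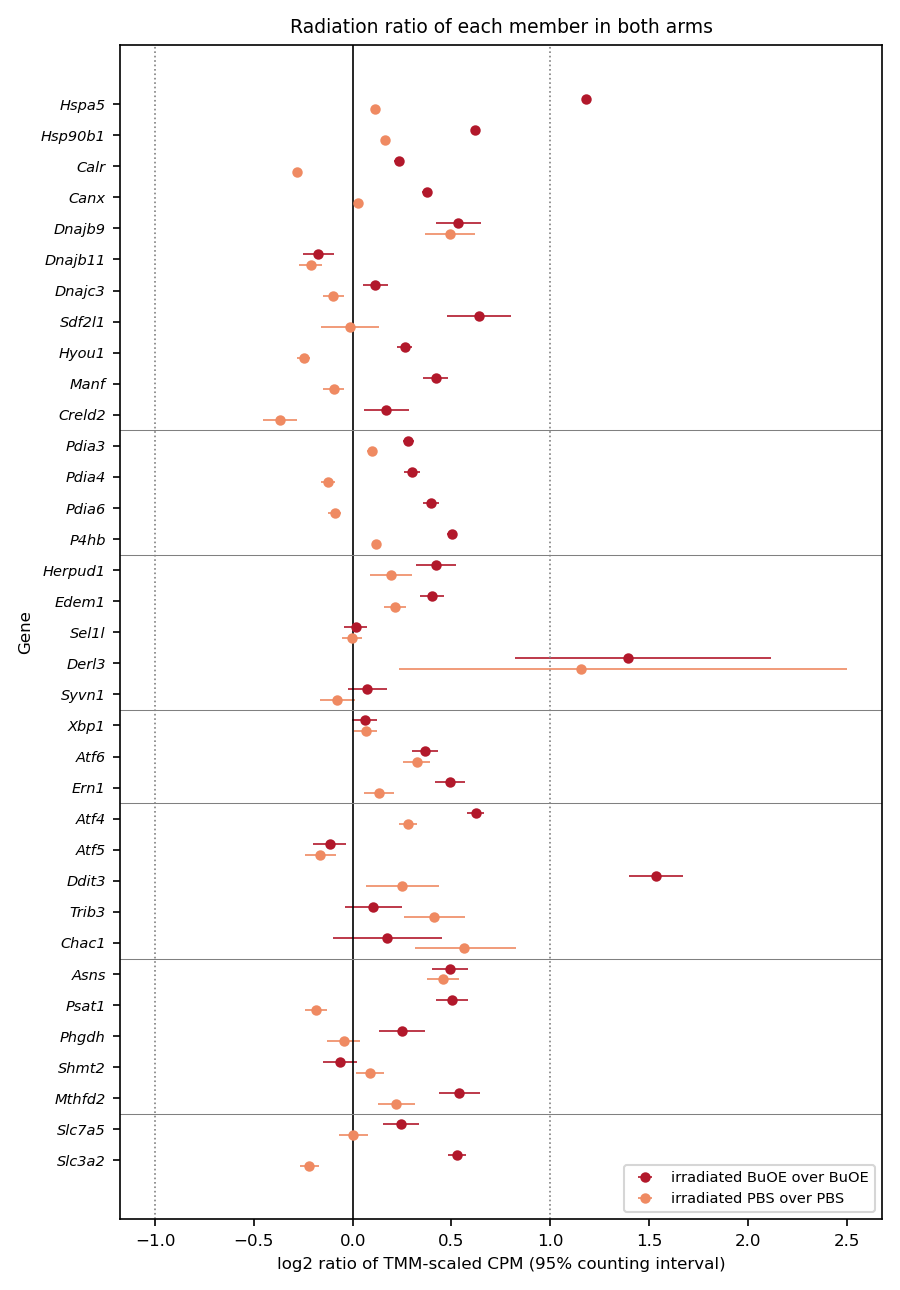
Log2 ratio (x axis) of irradiated BuOE over BuOE and of irradiated PBS over PBS for each of the 35 members (y axis, grouped by role), with 95% counting intervals; dotted lines mark 2-fold. In the BuOE arm 32 of 35 points lie above 0, in the PBS arm 20 of 35.

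The second comparison asks the same of the PBS arm, where the members divided about evenly, with 4 of 5 ATF4 regulators and 4 of 11 chaperones higher in the irradiated library. Of the 35 genes, 20 had ratios above 0, against 50.4% of all genes, and the median was 0.07 against 0.00 for all genes. The count lay between 18 and 21 over the scalings. At least 2-fold higher was 1 gene, Derl3 (1.16, 0.23 to 2.50), against 5.62% of all genes (0 among genes of at least 10 CPM, against 2.48%), and 0 were 2-fold lower, against 1.02%. Among the chaperones 4 of 11 lay above 0, with a median of -0.10. Creld2 was the lowest, at 60.5 CPM in the irradiated PBS library against 78.1 in the PBS library (-0.37, -0.45 to -0.28), followed by Calr (-0.28, -0.30 to -0.27), Hyou1 (-0.25, -0.28 to -0.22) and Dnajb11 (-0.21, -0.27 to -0.15). Hsp90b1 (0.17, 0.15 to 0.18) and Hspa5 (0.12, 0.10 to 0.13) were slightly higher, and Dnajb9 was the highest chaperone, at 38.7 CPM in the irradiated PBS library against 27.5 in the PBS library (0.49, 0.37 to 0.62). Of the disulfide isomerases 2 of 4 lay above 0, between -0.13 for Pdia4 and 0.12 for P4hb.

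The sensors Atf6 (0.32, 0.26 to 0.39) and Ern1 (0.13, 0.06 to 0.21) and the ERAD genes Edem1 (0.21, 0.16 to 0.27) and Herpud1 (0.19, 0.09 to 0.30) had ratios above 0 in the PBS arm. Of the ATF4 regulators 4 of 5 did. Chac1, at 10.1 CPM in the irradiated PBS library against 6.81 in the PBS library, had the highest ratio of the ATF4 arm (0.56, 0.32 to 0.83), and Trib3 (0.41, 0.26 to 0.57), Atf4 (0.28, 0.23 to 0.33) and Ddit3 (0.25, 0.07 to 0.43) followed; Atf5 was lower (-0.16, -0.24 to -0.09). Asns, whose promoter carries the same element as those of Chac1 and Trib3, was at 92.9 CPM in the irradiated PBS library against 67.7 in the PBS library (0.46, 0.38 to 0.54). These 3 genes with the C/EBP-ATF element had a median of 0.46, and the 8 genes of the arm with a window but no such element a median of 0.02. In the BuOE arm the order was the other way round, with medians of 0.17 and 0.52. The serine synthesis genes Psat1 (-0.19, -0.24 to -0.13) and Phgdh (-0.05, -0.13 to 0.04) and the transporter Slc3a2 (-0.22, -0.27 to -0.17) lay below 0, with an interval that includes 0 for Phgdh.

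Set against each other, the radiation ratio was higher in the BuOE arm than in the PBS arm for 31 of the 35 genes, against 47% of all genes, with 25 of 35 under library size alone (35.1% of all genes) and 32 of 35 under upper-quartile factors (60.7%). The median difference of the 2 ratios was 0.35 for the ATF6 and XBP1 arm and 0.27 for the ATF4 arm, against -0.03 for all genes. The difference compares all 4 libraries and leaves nothing to estimate error from, so it was not tested. The interval given with each difference is a normal approximation that covers counting error only. It was largest for Ddit3 (1.28, 1.06 to 1.51) and Hspa5 (1.06, 1.04 to 1.09), the 2 of 35 with a difference at least 2-fold higher, against 2.7% of all genes, and 0 were 2-fold lower, against 8.76%. Slc3a2 (0.75, 0.68 to 0.81), Psat1 (0.69, 0.59 to 0.79) and Sdf2l1 (0.65, 0.44 to 0.87) came next, and all 11 chaperones and all 4 isomerases lay above 0, although Dnajb9 and Dnajb11 changed sign between scalings. Chac1 (-0.39, -0.76 to -0.02), Trib3 (-0.31, -0.52 to -0.10) and Shmt2 (-0.15, -0.26 to -0.04) lay below 0 by more than their intervals. For 13 genes the ratio was below 0 in the PBS arm and above 0 in the BuOE arm, against 19% of all genes, and the opposite held for 1 gene, Shmt2, against 23.3% of all genes. It was above 0 in both arms for 19 genes, against 27.2% of all genes, and below 0 in both for Dnajb11 and Atf5, 2 of 35, against 30.5%.

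The third comparison is BuOE against PBS without radiation, in which 10 of 11 chaperones and all 5 enzymes were lower in the BuOE library and 4 of 5 ATF4 regulators higher. It shares the BuOE library with the radiation comparison of the BuOE arm, so a low value in that library lowers the one ratio and raises the other. Of the 35 genes 11 had ratios above 0, against 48.8% of all genes, with a median of -0.17 against -0.01. At least 2-fold lower was 1 gene, Psat1, against 4.23% of all genes, and at least 2-fold higher was 1, Derl3 (1.42, 0.52 to 2.78), against 8.72% (0 among genes of at least 10 CPM, against 4.39%). At least 1.5-fold lower were 5, against 10.6%. Of the chaperones 1 of 11 lay above 0 (Dnajb9, 0.47, 0.34 to 0.60), with a median of -0.47. Creld2 stood at 45.0 CPM in the BuOE library against 78.1 in the PBS library (-0.79, -0.89 to -0.70), Calr had a ratio of -0.70, -0.72 to -0.68, Manf -0.63, -0.69 to -0.57, Dnajb11 -0.58, -0.65 to -0.52, Hsp90b1 -0.50, -0.52 to -0.47 and Hspa5 -0.22, -0.24 to -0.20. All 4 disulfide isomerases were lower as well, with P4hb (-0.17, -0.19 to -0.15) nearest 0 and Pdia6 (-0.57, -0.61 to -0.53) farthest.

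Of the 5 enzymes, the serine synthesis genes Psat1 and Phgdh differed most. Psat1 stood at 107 CPM in the irradiated BuOE library, 153 in the irradiated PBS library, 75.6 in the BuOE library and 175 in the PBS library, lowest in the BuOE library and highest in the PBS library, and its ratio of BuOE over PBS was -1.21, -1.28 to -1.14. Phgdh, which acts one step before it, had a ratio of -0.74, -0.84 to -0.64, Shmt2, which uses the serine made, -0.29, -0.36 to -0.21, and Slc7a5 -0.55, -0.64 to -0.47. All 5 enzymes lay below 0. Psph, which acts after Psat1 and is named here after its values were seen, was nearly level at 11.1 CPM in the BuOE library against 11.5 in the PBS library (-0.05, -0.27 to 0.17). By contrast 4 of 5 ATF4 regulators lay above 0, with Trib3 at 28.2 CPM in the BuOE library against 19.0 in the PBS library (0.57, 0.41 to 0.72), Ddit3 at 20.6 CPM in the BuOE library against 14.1 in the PBS library (0.54, 0.36 to 0.73) and Atf4 at 0.31, 0.26 to 0.36. Herpud1 (0.26, 0.15 to 0.37) and Atf6 (0.26, 0.19 to 0.33) were also higher. Chac1 (0.16, -0.12 to 0.44) and Atf5 (-0.01, -0.09 to 0.07) had intervals that include 0.

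The fourth comparison is BuOE against PBS after radiation, and it shares each library with 1 radiation comparison. Of the 35 genes 19 lay above 0, against 43.8% of all genes, with a median of 0.04 against -0.07; with upper-quartile factors 25 did, against 55.9%. At least 2-fold higher were Ddit3 (1.83, 1.69 to 1.97) and Derl3 (1.66, 1.09 to 2.40), 2 of 35 against 3.81% of all genes (1 among genes of at least 10 CPM, which leaves out Derl3, against 2.48%), and 0 were 2-fold lower, against 5.92%. At least 1.5-fold higher were 5, against 11% of all genes, and besides these 2 they were Hspa5 (0.85, 0.83 to 0.86), Slc3a2 (0.74, 0.70 to 0.78) and Atf4 (0.65, 0.61 to 0.69). The genes Dnajb9 (0.51, 0.40 to 0.62), Herpud1 (0.49, 0.39 to 0.58), Ern1 (0.43, 0.36 to 0.50) and Atf6 (0.30, 0.24 to 0.36) were higher too. Psat1 (-0.52, -0.59 to -0.45), Phgdh (-0.44, -0.54 to -0.34), Shmt2 (-0.44, -0.52 to -0.36) and Slc7a5 (-0.31, -0.39 to -0.23) were lower again in the library with BuOE, as was Dnajb11 (-0.54, -0.61 to -0.47). Hsp90b1 (-0.04), Manf (-0.12), Pdia4 (-0.02) and Pdia6 (-0.08) lay near 0 and changed sign between scalings.

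**Figure D3:**
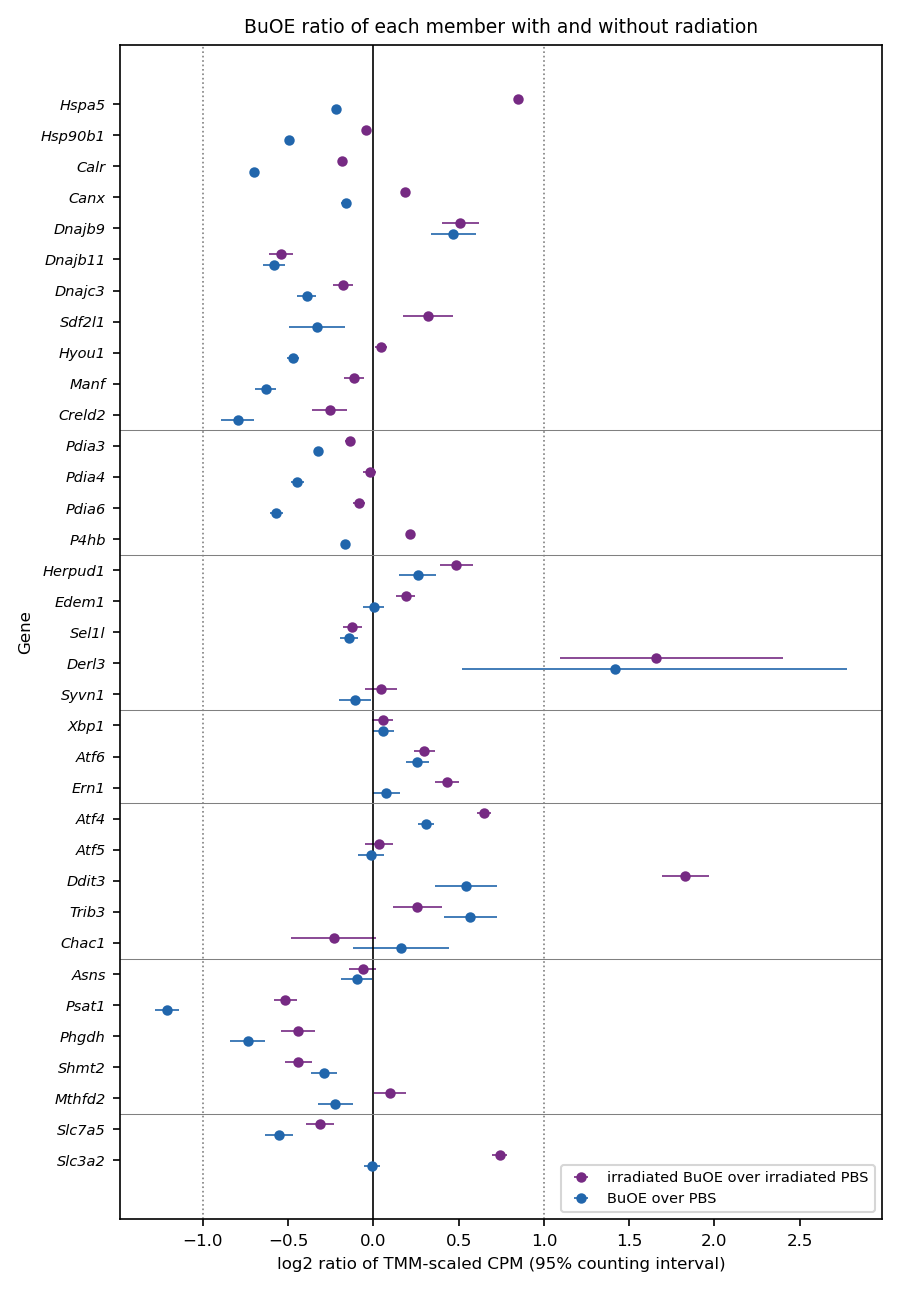
Log2 ratio (x axis) of irradiated BuOE over irradiated PBS and of BuOE over PBS for each of the 35 members (y axis, grouped by role), with 95% counting intervals; dotted lines mark 2-fold. Psat1, Phgdh, Shmt2 and Slc7a5 lie below 0 in both, Atf4, Ddit3, Trib3 and Herpud1 above 0 in both, and Hspa5 changes side.

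Over the 4 libraries the members differed in which library was lowest. For 20 of the 35 the BuOE library was the lowest, against 20.5% of all genes. These were 9 of 11 chaperones, all 4 disulfide isomerases, Sel1l, Syvn1, Asns, Psat1, Phgdh, Mthfd2 and Slc7a5. For 11 the PBS library was the lowest, close to the 30.1% of all genes, so this count does not set the members apart. They were the 3 sensors and factors Atf6, Ern1 and Xbp1 and the ATF4 regulators Atf4, Ddit3, Trib3 and Chac1. The rest were the ERAD genes Herpud1, Edem1 and Derl3, and Dnajb9. The BuOE library was the highest for 0 of the 35, against 21.9% of all genes, and the irradiated BuOE library for 16, against 28.4%. These 16 include Derl3, which passed the filter only through that library. The irradiated BuOE library was the lowest for Dnajb11 and Shmt2, 2 of 35 against 35.3%, and the irradiated PBS library for Atf5 and Slc3a2, 2 of 35 against 14.1%. The PBS library was the highest for 13, against 32.2%, and the irradiated PBS library for 6, against 17.5%. The spread over the libraries differed between genes, also within a role. The highest library exceeded the lowest 8.22-fold for Derl3, 4.23-fold for Ddit3, 2.31-fold for Psat1 and 2.26-fold for Hspa5, but 1.08-fold for Syvn1, 1.09-fold for Xbp1 and 1.10-fold for Sel1l.

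**Figure D4:**
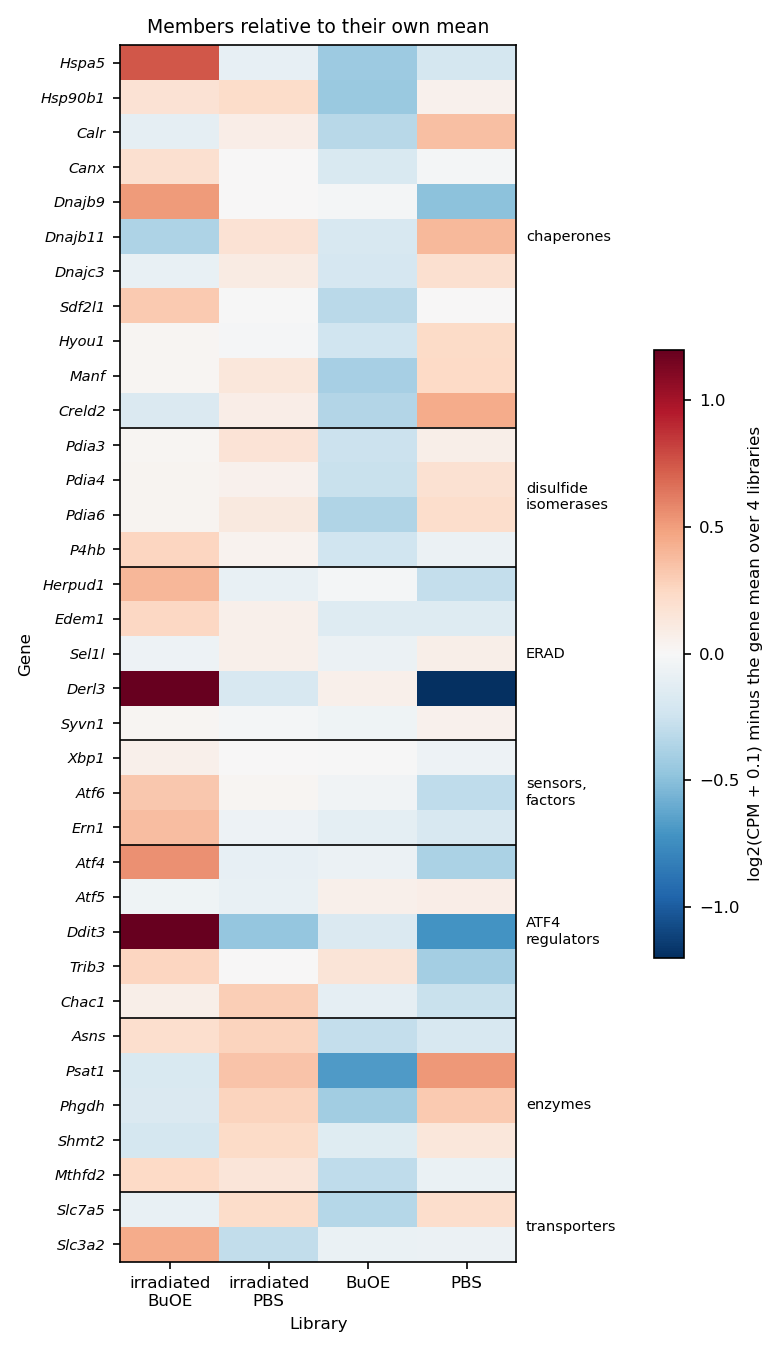
Log2(CPM + 0.1) of each member (rows, grouped by role) minus its mean over the 4 libraries (columns); red is above and blue below the mean, and colours saturate at 1.2. The BuOE column holds the lowest value of 9 of 11 chaperones and of all 4 isomerases, and Ddit3, Derl3 and Hspa5 are darkest red in the irradiated BuOE column.

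Within the ATF6 and XBP1 arm, genes with and without an ER element in the window overlapped in every comparison. With radiation in the BuOE arm, the 11 genes with an ER element had a median of 0.38 and a range from -0.17 (Dnajb11) to 1.4 (Derl3), and the 9 with a window but no such element a median of 0.40. Derl3 passed the filter only through the irradiated BuOE library. In the PBS arm the medians were -0.08 with an element and 0.10 without. For BuOE over PBS they were -0.39 (2 of 11 above 0) and -0.14 (4 of 9), after radiation -0.04 and 0.19, and for the difference between the radiation ratios 0.35 and 0.19. Among the genes with the same ER stress response element, Hspa5, Hsp90b1, Canx and Calr had ratios of 1.18, 0.62, 0.38 and 0.23 in the BuOE arm.

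Further genes of the pathway, in 8 lists of 150 genes, were set beside the members. These lists were also chosen with earlier results of these data known. The genes of the translocon, signal peptidase and oligosaccharyl transferase bring proteins into the ER and glycosylate them. Their medians followed those of the chaperones except with radiation in the PBS arm. There the chaperones had a median of -0.10 (4 of 11 above 0). Of the 22 translocon list genes, 21 had ratios above 0 with radiation in the BuOE arm (median 0.23), against 46.2% of all genes. In the PBS arm 13 did (0.06), against 50.4%. With BuOE, 4 did without radiation (-0.29), against 48.8%, and 8 after radiation (-0.05), against 43.8%. Ssr3, a subunit of the translocon-associated complex and the most expressed of them, stood at 572 CPM in the irradiated BuOE library, 552 in the irradiated PBS library, 411 in the BuOE library and 479 in the PBS library. Mitochondrial chaperones and proteases had 11 of 12 above 0 with radiation in the BuOE arm (0.24), but 3 of 12 in the PBS arm (-0.16), against the same 46.2% and 50.4% of all genes. The BuOE arm medians were 0.15 for 22 other ER folding genes (14 above 0), 0.13 for 20 cytosolic aminoacyl-tRNA synthetases (15), 0.08 for 20 cytosolic heat shock genes (14), 0.02 for 15 other ERAD genes (9) and 0.00 for 14 other signalling genes (6), all beside -0.03 for all genes. Of all genes 46.2% lay above 0, so the count of the other signalling genes does not set them apart. In the PBS arm the medians of the same 5 lists lay between -0.06 and 0.02. Lower values with BuOE without radiation were not particular to ER genes. Below 0 were 18 of 20 synthetases (median -0.29), 10 of 12 mitochondrial genes (-0.23) and 14 of 20 heat shock genes (-0.23). The other ER folding genes had 15 of 22 below 0 (-0.16), the other signalling genes 9 of 14 (-0.16) and the other ERAD genes 9 of 15 (-0.05). The median of all genes was -0.01, and 48.8% of them lay above 0. The count of the other ERAD genes was not far from that of all genes, so it does not set them apart.

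The 24 measured genes of a second list of ATF4 targets had a median of 0.32 with radiation in the BuOE arm (18 above 0, against 46.2% of all genes). In the PBS arm their median was 0.16 (18 above 0, against 50.4%). With BuOE their medians were 0.19 without and 0.37 after radiation. The medians of all genes in these comparisons were -0.03, 0.00, -0.01 and -0.07 in that order. Vldlr, a lipoprotein receptor gene of that list, stood at 165 CPM in the irradiated BuOE library, 65.6 in the irradiated PBS library, 82.3 in the BuOE library and 23.0 in the PBS library. Slc7a11, the cystine transporter, stood at 246 CPM in the irradiated BuOE library, 168 in the irradiated PBS library, 268 in the BuOE library and 303 in the PBS library, so it was lowest in the irradiated PBS library. Ero1a, the ER oxidase that recharges disulfide isomerases, spread more than any isomerase gene, at 1164 CPM in the irradiated BuOE library, 345 in the irradiated PBS library, 346 in the BuOE library and 72.3 in the PBS library, and its BuOE arm radiation ratio was 1.75, 1.72 to 1.78. Ppp1r15a, the phosphatase subunit that ends eIF2alpha phosphorylation and another ATF4 and CHOP target, stood at 134 CPM in the irradiated BuOE library, 55.2 in the irradiated PBS library, 73.4 in the BuOE library and 44.0 in the PBS library (0.87, 0.79 to 0.95). The heat shock gene Hspa1a stood at 53.9 CPM in the irradiated BuOE library, 12.5 in the irradiated PBS library, 20.8 in the BuOE library and 8.48 in the PBS library (1.37, 1.23 to 1.51), while Hspa8, the constitutive cytosolic HSP70, had a ratio of 0.09, 0.07 to 0.11. Reads of Hspa1a can be shared with the near-identical Hspa1b, so its value is uncertain.

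The lists also held genes on the other side of 0 in the BuOE arm. Among genes of at least 10 CPM the lowest ratios were those of Cnpy2 in the ER folding list, at 35.7 CPM in the irradiated BuOE library against 54.3 in the BuOE library (-0.60, -0.73 to -0.49), of Mbtps1, the protease that cleaves ATF6, in the signalling list (-0.47, -0.54 to -0.41), of the neutral amino acid transporter gene Slc1a4 in the ATF4 list (-0.40, -0.55 to -0.26) and of Chordc1 in the heat shock list (-0.37, -0.49 to -0.26). The tryptophanyl-tRNA synthetase gene Wars (-0.33, -0.42 to -0.24), the mitochondrial chaperone gene Trap1 (-0.28, -0.38 to -0.17) and Vcp, the ATPase that extracts proteins for degradation (-0.27, -0.30 to -0.24), were lowest in theirs, and Spcs1, a signal peptidase subunit (-0.05, -0.15 to 0.06), in the translocon list. The highest of the remaining lists were the translocon subunit gene Sec61g (0.77, 0.66 to 0.88), the mitochondrial HSP70 gene Hspa9 (0.63, 0.61 to 0.66), the seryl-tRNA synthetase gene Sars (0.52, 0.47 to 0.57) and Derl1 of the ERAD list (0.44, 0.37 to 0.51). The other most expressed genes lay between -0.40 for the transcription factor gene Creb3l2 and 0.25 for the synthetase gene Eprs.

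**Figure D5:**
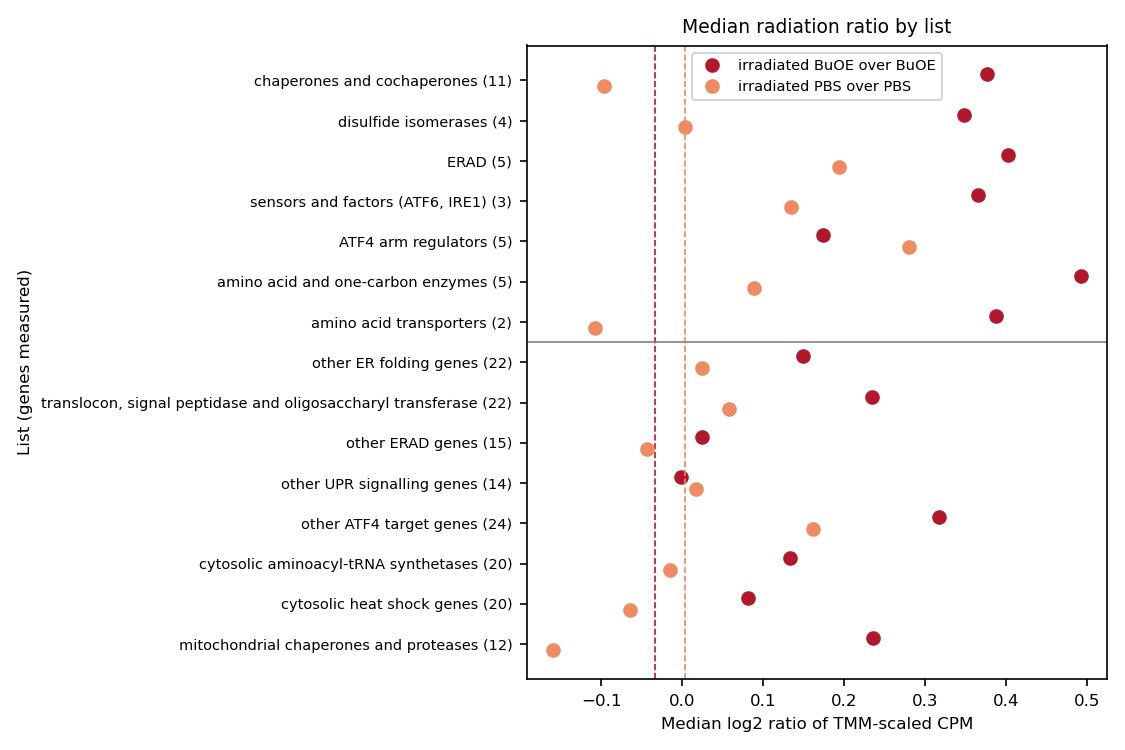
Median log2 ratio (x axis) of the 7 role groups of the members (above the line) and of 8 further lists (below it), with the number of genes measured in brackets, for irradiated BuOE over BuOE and irradiated PBS over PBS; dashed lines are the medians of all 14365 genes. In the BuOE arm the chaperones, isomerases, ERAD genes, enzymes and transporters lie at 0.35 to 0.49, the ATF4 regulators at 0.17, below their 0.28 in the PBS arm, and the other ERAD and signalling genes at 0.02 and 0.00.

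A model with radiation and BuOE as additive terms was fitted over all 14365 genes with edgeR's quasi-likelihood test, with 1 residual degree of freedom and the interaction taken as error. It called 0 genes at an adjusted p of 0.05 for either term (0% of all genes), with 1028 genes below an unadjusted p of 0.05 for radiation and 2828 for BuOE. Among the members, 4 were below it for radiation (Asns, Atf6, Derl3 and Dnajb9) and 10 for BuOE, of which Dnajb11 had the lowest adjusted p (0.164). DESeq2 called 112 of 14365 genes for radiation (0.78%), none of them a member. For BuOE it called 866 of the 12694 genes with an adjusted p (6.82%) and 2 of 34 members, Ddit3, higher, and Psat1, lower.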

How the data were processed

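The deposited values are raw counts of reads per gene, 1 column for each of 4 libraries, which the authors made on GRCm39 with featureCounts. This comes from the submitters' processing notes, where Trim Galore (0.6.4), Salmon (1.4.0) and edgeR (4.2.2) also stand without a role. Strand and multi-mapping settings are not given in the sources used here. Groups are the labelled treatments. Symbols were joined by Ensembl ID from GENCODE M21 (GRCm38), which names 52073 of 56748 IDs, and TPM used its exon lengths. Scaling was by TMM (edgeR 4.0.16 in R 4.3.3), and log2 ratios used a prior count of 2 and genes with a mean CPM of at least 1 (14365). Intervals (95%) are exact binomial for ratios and normal approximations for differences between the arms, and cover counting error only. A count of 3 reads equals 0.0842 to 0.123 CPM. The additive model was run with edgeR, DESeq2 (1.42.0) and limma-voom (3.58.1). The additive fit and the ratio of irradiated PBS over PBS were also run on simulated Poisson counts without an interaction. These are simpler than the real counts, so that run does not test the intervals or the calls given here. Named genes are the 35 members and, from each further list, the 2 most expressed and the extremes in the BuOE arm. Members and lists were chosen with earlier results of these data known.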

Additional observations from a re-analysis of the deposited data

Results flagged for a closer look

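For 9 of the 35 genes the radiation ratio lay below 0 in the PBS arm and above 0 in the BuOE arm with both counting intervals clear of 0, and for 0 genes the other way round. The share of all genes by this interval rule was not counted, so these 9 cannot be called unusual. By sign alone the counts were 13 of 35, against 19% of all genes, and 1 of 35 the other way round, against 23.3%. With 1 library per condition, these differences between the arms were not tested. The difference of the log2 ratios, BuOE arm minus PBS arm, was 0.75 for Slc3a2, 0.69 for Psat1, 0.54 for Creld2, 0.52 for Manf, 0.52 for Calr, 0.51 for Hyou1, 0.49 for Pdia6, 0.42 for Pdia4 and 0.21 for Dnajc3.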

How the results depend on the processing

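No paired analysis was possible because each group holds 1 library, and for the same reason no library could be left out of a comparison. Scaling by library size alone moved the median ratio of all genes to -0.14 for radiation in the BuOE arm, -0.10 for BuOE after radiation and -0.15 for the difference between the arms, and upper-quartile factors moved the last to 0.11. Upper-quartile factors gave a median difference between the arms of 0.49 for the ATF6 and XBP1 arm. With a fold of 1.5, 6 members were called higher for radiation in the BuOE arm, 5 higher for BuOE after radiation and 5 lower for BuOE without radiation. Among genes of at least 10 CPM, which leaves out Derl3, the counts of 2-fold higher members were 0 for radiation in the PBS arm, 0 for BuOE without radiation and 1 for BuOE after radiation. The additive model called 112 genes for radiation with DESeq2, and for BuOE 866 with DESeq2, 421 at 10 CPM or more and 283 without filter; the cause was not tested. Of 175 ratios and differences of single members, 25 changed sign in at least 1 alternative. Of the values of lists and counts over the alternatives, 11 moved, and the other 161 stayed within the spread over members or within 1.5 times. Among all remaining values 193 moved and 1022 did not. Derl3, with 10 reads in the PBS library, is limited most by depth.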
